A study of Mus musculus with 7 samples.

Results

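Sele, Selp, Vcam1, Icam1, Icam2, Alcam, Madcam1 and Pecam1 encode surface proteins that leukocytes hold on to. The 8 genes were chosen by name as adhesion molecules for leukocytes, with earlier results of these data known. How many of them differed is therefore no independent test. Each is represented by the transcript cluster (the set of probes the array summarises into 1 value) that carries its symbol alone. All 8 of 8 were measured, each by 1 cluster, among 30473 clusters with exactly 1 gene symbol and 65770 clusters in all. Their signals were read on 7 Affymetrix mouse transcriptome arrays of HM-1, a mouse ovarian cancer cell line kept in culture. The 3 control arrays came from cells that received a non-silencing hairpin. The 4 shSnail arrays came from cells carrying a lentiviral short hairpin RNA against Snail (the gene Snai1), 2 with the hairpin sh1 and 2 with the hairpin sh2. All groups had thus been through hairpin transfer. The samples within a group are labelled biological replicates, but no source used here tells whether a hairpin was introduced repeatedly or the cultures were grown apart. The p-values cover the spread of these arrays alone, which may be technical. The number of arrays limits the precision.

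Leukocytes leave the blood in steps. The selectins catch rolling cells by binding sugar chains on their surface, and members of the immunoglobulin superfamily such as Icam1 and Vcam1 then hold leukocyte integrins firmly. In endothelium, the best known site of these proteins, E-selectin, Vcam1 and Icam1 are induced by inflammatory cytokines such as tumour necrosis factor and interleukin 1 through the transcription factor NF-kB. Snail is a transcriptional repressor that binds short DNA motifs called E-boxes and drives epithelial-mesenchymal transition. The comparison asks which of the 8 transcripts differed in tumour cells in which Snail was targeted.

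The hairpins define the 2 shSnail cell populations, so the sites they target in the Snai1 transcript are shown, each 19 bases long.
sh1: agtttattgatattcaata
sh2: tggttaatttatatactaa
The Snai1 cluster gave a log2 signal of 6.61, 6.69 and 6.70 in the control arrays, 6.80 and 6.55 in sh1, and 6.69 and 6.77 in sh2. These values overlapped, with a difference of 0.03 (SE 0.066, limma adjusted p = 0.852). On every array they lay below the 95th percentile of that array's negative control probes, so the array gave no check of the knockdown, and groups are named here by their labels.

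The stretch around the transcription start is shown for Sele, the member with the largest difference, and for Selp and Icam1, which did not pass the test. The sequences run from 250 bases before to 50 bases after the start in RefSeq on GRCm38.p6, at chr1:164047984-164048283 for Sele, chr1:164115014-164115313 for Selp and chr9:21015690-21015989 for Icam1, all on the plus strand. Capitals mark matches on either strand to GGG, any 5 bases and CC, a loose form of the NF-kB site, and to TGACNTCA, a loose form of the ATF/CREB site.
Sele: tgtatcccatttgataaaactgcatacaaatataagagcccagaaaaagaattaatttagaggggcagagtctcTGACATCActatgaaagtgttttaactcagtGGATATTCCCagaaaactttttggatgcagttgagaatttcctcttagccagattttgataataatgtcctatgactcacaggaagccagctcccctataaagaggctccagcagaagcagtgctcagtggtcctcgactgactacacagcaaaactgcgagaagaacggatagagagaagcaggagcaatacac
Selp: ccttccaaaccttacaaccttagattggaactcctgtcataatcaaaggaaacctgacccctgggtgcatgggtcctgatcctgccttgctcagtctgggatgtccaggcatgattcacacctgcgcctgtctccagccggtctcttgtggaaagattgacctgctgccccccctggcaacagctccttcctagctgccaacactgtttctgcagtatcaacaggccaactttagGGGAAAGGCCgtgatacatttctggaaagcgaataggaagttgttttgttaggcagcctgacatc
Icam1: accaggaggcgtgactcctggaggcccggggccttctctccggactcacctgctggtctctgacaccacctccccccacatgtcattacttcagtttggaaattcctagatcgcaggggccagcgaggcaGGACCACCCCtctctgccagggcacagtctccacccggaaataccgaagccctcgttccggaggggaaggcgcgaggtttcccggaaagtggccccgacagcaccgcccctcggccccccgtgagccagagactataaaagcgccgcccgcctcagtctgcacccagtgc
Of the 8 genes, 5 had a RefSeq promoter in the reference table, namely Sele, Selp, Icam1, Alcam and Madcam1. Both strands were searched for those motifs and for 2 E-box forms, CANNTG and CACCTG, the latter being contained in the former. The Sele promoter held 1 match to the NF-kB form at position -145 from the start on the minus strand, 1 TGACNTCA match at -176, 2 CANNTG matches and 0 CACCTG matches. Selp and Icam1 each held 1 match to the NF-kB form and 1 to CACCTG, and Madcam1 held 5 matches to the NF-kB form that overlap each other in part. Alcam held 1 CACCTG match and none to the NF-kB form. Of 32851 promoters of the same length, 50.8% held the NF-kB form, 72.3% CANNTG, 20.2% CACCTG and 8.83% TGACNTCA. A match describes the letters and is not a measured binding site.

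Signals are on the deposited log2 scale, where a step of 1 is a doubling, and a level can be set against the negative controls but not against another gene's level. Between arrays, the median over clusters ran from 4.51 to 4.56. The negative control probes were brighter in shSnail, with medians of 4.83 to 4.86 in control, 4.92 and 4.99 in sh1, and 5.12 and 5.20 in sh2. Their 95th percentile, used as the mark of a signal clear of background, was 7.82 to 7.97 in control and 8.05 to 8.39 in shSnail. For the mean of a group the mark was 7.97, the percentile over all arrays. Set against each array's own mark, only Alcam was above on all 7 arrays, Sele on the 3 control arrays and Vcam1 on 2 control arrays. The other 5 members were below each array's mark on all 7.

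**Figure D1:**
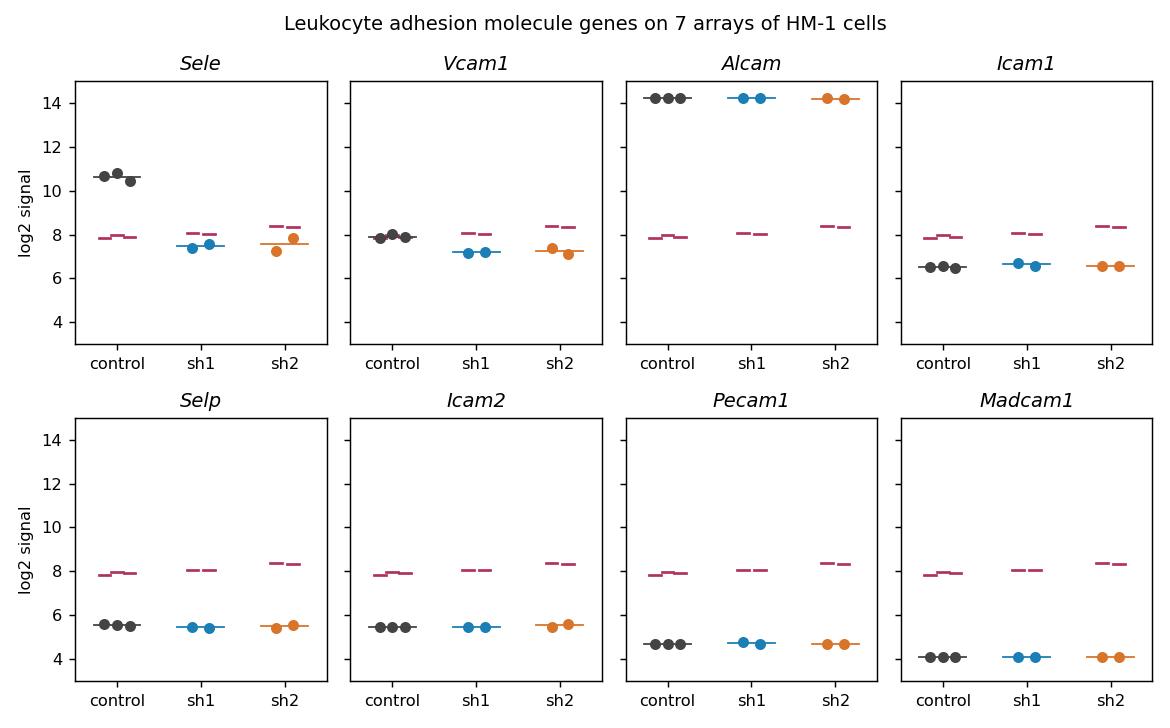
Log2 signal of each of the 8 genes (vertical axis) on every array of control, sh1 and sh2 (horizontal axis). Points are arrays, thin lines group means, and short red bars the 95th percentile of the negative control probes of the same array. Sele stood at 10.44 to 10.80 in control and 7.26 to 7.83 in shSnail, and Vcam1 at 7.82 to 8.02 and 7.10 to 7.38, while the other 6 genes overlapped between control and shSnail.

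Of the 8 genes, Sele and Vcam1 were lower in shSnail than in control, 0 were higher, and 6 did not pass the test (limma, Benjamini-Hochberg adjusted p under 0.05 over all clusters). Over all 65770 clusters, 0.432% were lower and 0.21% higher, so that 67.3% of the calls were lower. Centred on the negative controls, a scaling that moved the median of all clusters by -0.21, 87.3% were. Sele alone was lower by over 2-fold, which 0.147% of all clusters were. The values of control and shSnail arrays did not overlap for Sele and Vcam1, both lower, and overlapped for the other 6. Among all clusters, 4.01% were lower and 5.08% higher without overlap.

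Among the selectins, Sele had the largest difference of the 8. It encodes E-selectin, which endothelial cells display after cytokine stimulation and on which leukocytes roll. Its log2 signal was 10.68, 10.80 and 10.44 in the control arrays, 7.40 and 7.55 in sh1, and 7.26 and 7.83 in sh2. Every shSnail array was below every control array, and 2.61 separated the lowest control from the highest shSnail value. The control mean was 10.64 ± 0.18 (SD, n = 3) and the shSnail mean 7.51 ± 0.25 (SD, n = 4). The difference was -3.13 (SE 0.159, 95% interval -3.52 to -2.74, limma adjusted p = 0.0044). The control mean exceeded 98.7% of the negative control probes. On the 4 shSnail arrays Sele was not well above background, so only a bound holds there. Taking the 95th percentile of each shSnail array's negative controls as the floor (mean 8.21), Sele was at least 5.37-fold lower in shSnail. Without any 1 of the 7 arrays, the difference ran from -3.24 to -3.04 and the adjusted p from 0.0137 to 0.0361. Centred on the negative controls, which were brighter in shSnail, the difference of Sele was -3.34.

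Both hairpins had low Sele. In a fit of 3 groups, sh1 was lower than control by a log2 difference of -3.16 (SE 0.206, limma adjusted p = 0.0385) and sh2 by -3.09 (SE 0.206, limma adjusted p = 0.0255). These 2 comparisons share the control arrays. Sele was 1 of 8 members lower in sh1, where 0.0821% of all clusters were lower and 0.0517% higher, and 1 of 8 lower in sh2, where 0.477% were lower and 0.809% higher. The difference of sh2 from sh1 was 0.07 (95% interval -0.52 to 0.66, limma adjusted p = 1). With 2 arrays a hairpin, the calls of the single hairpins were less steady than that of shSnail as a whole. For sh1 the adjusted p of Sele was 0.173, 0.143 and 0.0951 without control replicate 1, 2 and 3, 0.072 and 0.0566 without sh1 replicate 1 and 2, and 0.0578 without either sh2 array. For sh2 it was 0.0867 and 0.0927 without control replicate 1 and 2, and 0.103 without either sh1 array, and it passed without the remaining arrays.

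Selp encodes P-selectin, which platelets and endothelial cells keep in storage granules and bring to the surface on activation. Its log2 signal was 5.61, 5.55 and 5.51 in control, 5.48 and 5.42 in sh1, and 5.40 and 5.56 in sh2. The groups overlapped, and the signal was below the background mark on all 7 arrays. The difference was -0.09 (SE 0.046, 95% interval -0.21 to 0.02, limma adjusted p = 0.576), so at this signal a change in Selp was not detectable.

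Vcam1 encodes the ligand of the integrins alpha4beta1 and alpha4beta7 on lymphocytes and monocytes. Its log2 signal was 7.82, 8.02 and 7.89 in control, 7.17 and 7.20 in sh1, and 7.38 and 7.10 in sh2. All 4 shSnail values were below all 3 control values, with 0.44 between the nearest. The control mean was 7.91 ± 0.10 (SD, n = 3) and the shSnail mean 7.22 ± 0.12 (SD, n = 4), and the difference was -0.70 (SE 0.079, 95% interval -0.89 to -0.50, limma adjusted p = 0.0355). Vcam1 was close to background in control, where 2 of 3 arrays passed the mark, control replicate 1 at 7.8221 against 7.8218. Its control mean was below the mark for a group mean, 7.97. On all 4 shSnail arrays it was below the array's mark. No fold is given, since the control mean was below the shSnail floor.

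The call of Vcam1 depended on the fit and on single arrays. With all 7 arrays, its adjusted p was 0.055 with 3 groups in the fit and 0.0965 by the methods' analysis of variance. Its direction was the same without each of the 7, with differences of -0.75 to -0.64, but its adjusted p was 0.114, 0.125 and 0.111 without control replicate 1, 2 and 3, 0.128 and 0.126 without sh1 replicate 1 and 2, and 0.0992 without sh2 replicate 2. It passed only without sh2 replicate 1, at 0.0388. By hairpin, Vcam1 was -0.72 in sh1 (SE 0.101, limma adjusted p = 0.135) and -0.67 in sh2 (SE 0.101, limma adjusted p = 0.0767), neither past the test. The difference of sh2 from sh1 was 0.06 (95% interval -0.23 to 0.35, limma adjusted p = 0.973). Centred on the negative controls, the difference of Vcam1 between shSnail and control was -0.90.

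**Figure D2:**
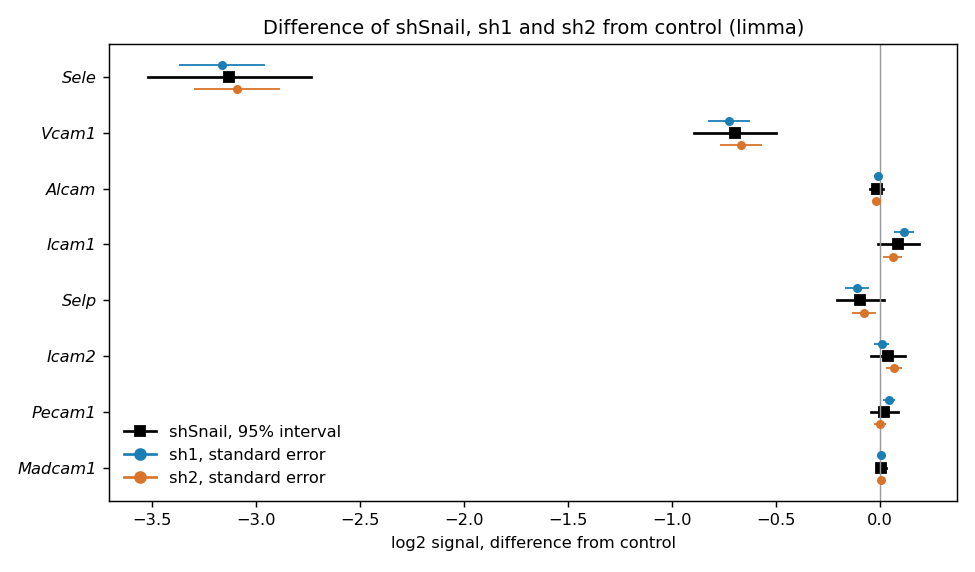
Difference in log2 signal from control (horizontal axis) for the 8 genes (vertical axis). Black squares with lines are shSnail with its 95% interval, and blue and orange points are sh1 and sh2 with their standard error. Sele lay at -3.13 and Vcam1 at -0.70, with both hairpins near the pooled value, and the intervals of the other 6 genes held 0.

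Icam1 and Icam2 encode ligands of the leukocyte integrin LFA-1, the former induced by cytokines and the latter present on resting endothelium. Icam1 gave a log2 signal of 6.51, 6.58 and 6.47 in control, 6.69 and 6.58 in sh1, and 6.58 and 6.58 in sh2. The lowest shSnail value equalled the highest of control, and the difference was 0.09 (SE 0.040, 95% interval -0.01 to 0.19, limma adjusted p = 0.535). Icam2 gave 5.47, 5.45 and 5.45 in control, 5.47 and 5.47 in sh1, and 5.47 and 5.59 in sh2. Only sh2 replicate 2 stood clear of the others, and the difference was 0.04 (SE 0.034, 95% interval -0.04 to 0.12, limma adjusted p = 0.661). Both genes were below the background mark on all 7 arrays, and neither passed the test between the hairpins, with sh2 minus sh1 at -0.05 (95% interval -0.19 to 0.08, limma adjusted p = 0.824) for Icam1 and 0.06 (95% interval -0.05 to 0.16, limma adjusted p = 0.8) for Icam2. Without sh2 replicate 1, sh2 is replicate 2 alone, the array that stood clear. Icam2 was then higher in sh2 than in control by 0.13 and than in sh1 by 0.12. No test is given for 1 array, the 2 sh1 values were equal, and all signals were below background.

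Alcam encodes a cell surface protein that binds CD6 on T cells and other copies of itself on neighbouring cells. It was the one member clear of background on every array, above 99.6% of the negative control probes in both groups. Its log2 signal was 14.21, 14.24 and 14.21 in control, 14.21 and 14.21 in sh1, and 14.21 and 14.19 in sh2. The values overlapped, and the difference was -0.01 (SE 0.013, limma adjusted p = 0.678). The 95% interval was -0.05 to 0.02 within the deposited normalization. Centred on the negative controls instead, the difference of Alcam was -0.22 and did not pass either.

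Madcam1 encodes the addressin of gut vessels that binds the integrin alpha4beta7, and Pecam1 encodes CD31, a junction protein of endothelial cells that leukocytes use when they cross the vessel wall. Madcam1 gave 4.10, 4.10 and 4.08 in control and 4.10 on all 4 shSnail arrays. Pecam1 gave 4.68 on the 3 control arrays, 4.77 and 4.68 in sh1, and 4.68 and 4.68 in sh2. Both showed 2 distinct values over 7 arrays, and the groups overlapped. Madcam1 exceeded 26.1% of the negative control probes in control and Pecam1 42.6%. Their differences were 0.01 (SE 0.0088, limma adjusted p = 0.758) and 0.02 (SE 0.026, limma adjusted p = 0.736). A change in either was not detectable at such signals.

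Tied values were common in the deposited table. Icam1, Icam2 and Alcam took 4 distinct values each over the 7 arrays, while Sele, Selp and Vcam1 took 7. Among all clusters, 79.9% had at least 1 tie and 4.59% were equal on every array. The standard errors of the tied genes rest on fewer different values than arrays.

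Between the hairpins, 0 of the 8 genes differed (limma adjusted p under 0.05), where 0% of all clusters did. At an unadjusted p under 0.05, 0 of the 8 differed, against 1487 clusters lower and 2463 higher in sh2 than in sh1, out of 65770. For 8 genes, 0 is near that share.

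In bulk RNA, fewer cells of a type and less RNA per cell cannot be told apart. Markers of the vessel and blood cells in which these 8 genes are best known were given for that reason. Over all clusters 0.432% were lower and 0.21% higher, so 0 calls in lists this short are near that share. Of 16 endothelial markers 15 were measured, with 0 lower and 0 higher, and their mean signal was 4.64 to 4.71 in control and 4.66 to 4.75 in shSnail. Only Flt1, a receptor for vascular endothelial growth factor that is not particular to endothelium, had a mean above the background mark, and Kdr, Tek, Tie1, Vwf and Cldn5 did not. Flt1 had a mean of 9.17 in control and 8.73 in shSnail, a difference of -0.43 (limma adjusted p = 0.276). Cdh5, the cadherin of endothelial junctions, had the largest difference in the list, opposite in sign to that of Sele, while below the mark in both groups: 5.12, 5.29 and 4.96 in control, 6.34 and 6.37 in sh1, and 5.92 and 5.79 in sh2. All 4 shSnail values of Cdh5 were above all 3 of control, and the difference of 0.98 (SE 0.177, limma adjusted p = 0.118) did not pass the test. The groups did not overlap for Flt1 either, and the part of these 2 markers in the results was not tested. Of 16 leukocyte markers 15 were measured, with 0 called and a mean of 4.94 to 4.99 in both groups. Among them Cd14 was above the mark in both groups, Ly6g in shSnail only (a mean of 7.92 in control and 8.44 in shSnail, limma adjusted p = 0.167, not past the test), and Ptprc in neither. Of 8 platelet markers 6 were measured, with 0 called and means of 4.27 to 4.30 in control and 4.21 to 4.30 in shSnail. For the labelled ovarian cancer, 12 of 12 epithelial and ovarian cancer markers were measured and 0 were called. The keratins Krt8, Krt18 and Krt19 were bright, at 16.47, 16.62 and 15.76 in control, and the other 9, among them Epcam, Cdh1, Wt1, Pax8 and Muc16, were below the background mark.

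The pathway around the members was described with 5 lists of other genes, 90 in all, of which 86 were measured. In shSnail, 5 of the 86 were lower and 1 was higher, and their median difference was -0.01, beside 0 over all clusters, of which 0.432% were lower and 0.21% higher. The counts moved with the setting. With quantile normalization 10 were lower, centred on the negative controls 19 were lower and 3 higher, and without single arrays 0 to 2 were lower. The same settings moved the counts over all clusters. With quantile normalization 592 clusters were lower and 254 higher, and centred on the negative controls 4109 and 598, against 284 and 138 as deposited. Over all clusters 4.01% were lower and 5.08% higher without overlap. Control and shSnail arrays did not overlap for any of the 6 pathway genes called with the deposited values. The test on the same arrays had selected these 6, so this adds no support. The call of each was lost without at least 1 array, and the direction of each was the same without any 1.

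The leukocyte partners of the members, integrins and selectin counter-receptors, came first, with 0 of 16 measured genes lower, 0 higher and a median difference of 0. The subunits of LFA-1 and of the alpha4 integrins on leukocytes, Itgal and Itga4, and the selectin ligand Selplg were below the background mark. Itgb7, the beta subunit shared by alpha4beta7 and alphaEbeta7, had the largest difference in the list and just missed the test: its mean was 11.65 in control and 10.61 in shSnail, a difference of -1.03 (SE 0.136, limma adjusted p = 0.0514). It was named after its values were seen.

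Of 25 other adhesion molecules, all measured, 2 were lower and 0 higher, with a median difference of -0.04. Cd47, a surface protein that restrains phagocytes through SIRP alpha and takes part in leukocyte transmigration, gave 13.84, 13.98 and 13.81 in control, 13.20 and 13.22 in sh1, and 13.08 and 13.05 in sh2. Its difference was -0.74 (SE 0.063, limma adjusted p = 0.016), and its adjusted p was 0.053 to 0.0808 without each of the 7 arrays in turn, past the threshold in none. Pvr, the poliovirus receptor that binds DNAM-1 and TIGIT on lymphocytes, gave 11.18, 11.15 and 11.06 in control, 10.82 and 10.72 in sh1, and 10.83 and 10.82 in sh2. Its difference was -0.33 (SE 0.040, limma adjusted p = 0.0415), and 0.0645 to 0.162 without each array in turn. Both genes were above the background mark in both groups.

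Of 14 enzymes that build selectin ligands, all measured, 0 were lower and 1 was higher, with a median difference of -0.02. Chst1, a sulfotransferase that acts on keratan sulfate and related sugar chains, gave 11.03, 11.05 and 10.95 in control, 11.55 and 11.57 in sh1, and 11.74 and 11.62 in sh2. Its difference was 0.61 (SE 0.053, limma adjusted p = 0.0167), the reverse of the direction of Sele. Of the 7 fits that each left out 1 array, only that without sh2 replicate 1 passed (0.0226), and the adjusted p reached 0.0857. Fut7, the fucosyltransferase that completes sialyl Lewis x on leukocytes, was below the background mark.

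Of 21 inducing cytokines and their receptors 20 were measured, with 2 lower, 0 higher and a median difference of -0.04. Tnfrsf1b, the second receptor for tumour necrosis factor, gave 9.50, 9.39 and 9.22 in control, 8.46 and 8.36 in sh1, and 8.39 and 8.41 in sh2. Its difference was -0.97 (SE 0.068, limma adjusted p = 0.0094). It passed without each array except control replicate 2, where its adjusted p was 0.0604. Ifngr2, a chain of the interferon gamma receptor, gave 9.87, 9.83 and 9.73 in control, 9.25 and 9.22 in sh1, and 8.98 and 9.07 in sh2, a difference of -0.68 (SE 0.077, limma adjusted p = 0.0355), with an adjusted p of 0.0659 to 0.152 without each of the 7 arrays in turn. The cytokines Tnf, Lta, Il1b and Ifng were below the background mark in both groups. The first tumour necrosis factor receptor Tnfrsf1a and the interleukin 1 receptor Il1r1 were above it and did not pass, with a limma adjusted p of 0.678 and 0.884.

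Of 12 cytoskeletal anchors and sheddases 11 were measured, with 1 lower, 0 higher and a median difference of -0.03. Adam17, the protease that sheds Vcam1 among other surface proteins, gave 12.37, 12.33 and 12.25 in control, 12.01 and 12.05 in sh1, and 12.00 and 11.99 in sh2. Its difference was -0.30 (SE 0.033, limma adjusted p = 0.0308), and it passed only without control replicate 3 (0.0329), with up to 0.132 without the others. The anchors Ezr, Msn, Actn1 and Actn4 were bright in both groups and did not pass.

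**Figure D3:**
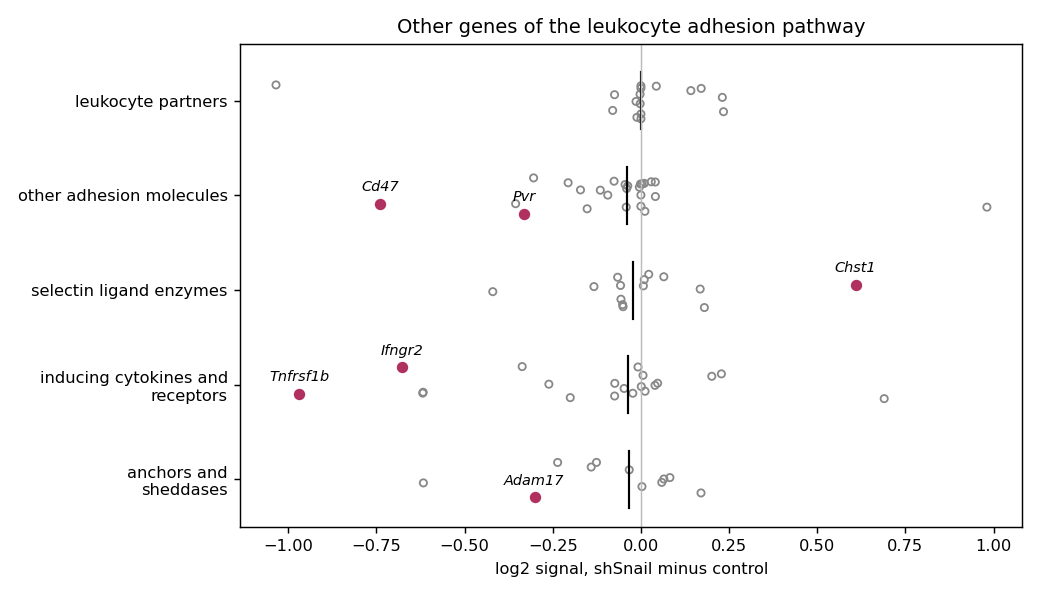
Difference in log2 signal between shSnail and control (horizontal axis) of the measured genes in the 5 lists (vertical axis, with points spread for legibility). Filled points passed the test, open points did not, and black lines mark each list's median. The 5 genes lower in shSnail (Cd47, Pvr, Tnfrsf1b, Ifngr2 and Adam17) and the 1 higher (Chst1) stood beside medians of -0.04 to 0.

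The neighbours of the members on the chromosome were read by gene order in RefSeq (GRCm38.p6), after their values were known, with up to 3 genes on each side. Sele and Selp lie near each other on chromosome 1. The difference was -0.52 (SE 0.096, limma adjusted p = 0.125) for Mettl18 and -0.34 (SE 0.076, limma adjusted p = 0.194) for BC055324, which precede Sele, and neither passed the test. Scyl3, before them, was at 0.00, and F5, after Selp, at 0.01. Around Vcam1 on chromosome 3, the 5 measured neighbours Dph5, Slc30a7, Extl2, Cdc14a and Rtca had differences of -0.19 to -0.01, and none passed. Icam1 lies on chromosome 9 beside Icam4 and Icam5, whose differences were -0.09 and 0.00. Icam2 and Pecam1 lie 3 genes apart on chromosome 11. On chromosome 16 the second gene from Alcam, Nfkbiz, had a difference of -2.30 (SE 0.093, limma adjusted p = 0.0030), while Alcam itself was at -0.01.

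**Figure D4:**
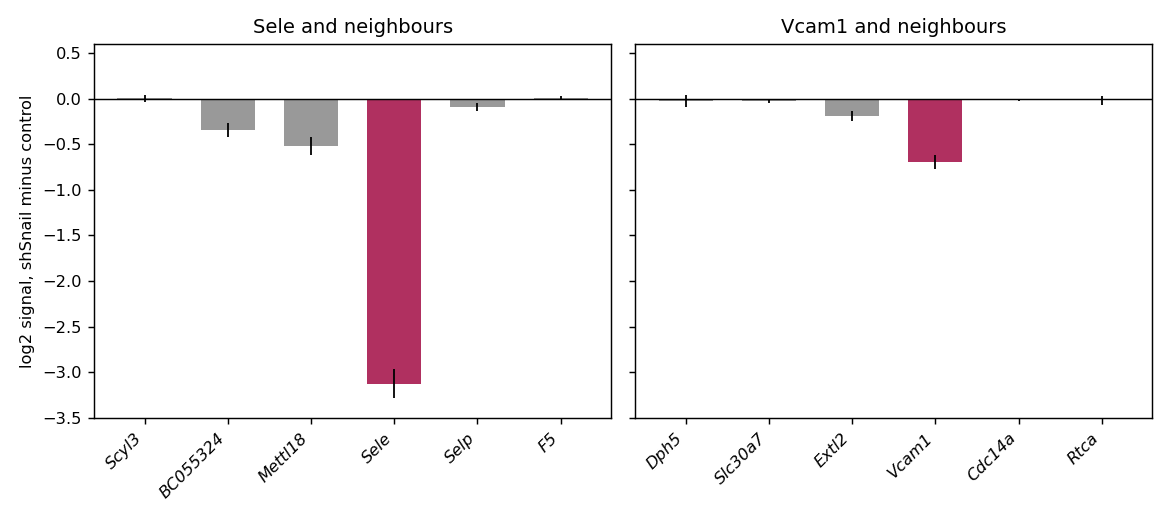
Difference in log2 signal between shSnail and control (vertical axis, bars with the standard error) of Sele, left, and Vcam1, right, with the measured genes among the 3 on either side in chromosome order (horizontal axis). Sele at -3.13 stood beside Mettl18 at -0.52 and Selp at -0.09, and Vcam1 at -0.70 beside Extl2 at -0.19.

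The genes whose signal followed Sele most closely over the 7 arrays were found among 522 one-symbol clusters with a mean above the background mark in control or shSnail and an SD of at least 0.3. They were Nfkbiz, Gdpd5 and Ikbke, each with Pearson's r of 0.9975, then Fbxo32 at 0.9963 and Rras at 0.9961. Their differences between shSnail and control were -2.30, -2.10, -2.25, -1.86 and -0.74. Nfkbiz, Ikbke and Fbxo32 were above the mark in control only, as was Sele, so their shSnail signals, and the size of those differences, are not clear of background. The genes closest to Vcam1, among 523, were Neurl3 and Cp at 0.990, Tmem176b and Gm8032 at 0.989, and Tmem176a at 0.988, with differences of -2.11, -2.14, -0.57, -1.23 and -0.89. Gm8032 was above the mark in control only, and Vcam1 itself was below it on all 4 shSnail arrays and 1 control array, so the same holds for them. The 7 arrays fall into control and shSnail, so these correlations describe mostly a shared difference between the groups and carry no p-value.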

How the data were processed

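RNA of 7 HM-1 samples was measured on Affymetrix mouse transcriptome arrays, and groups were taken from the sample titles. The authors deposited log2 signal values, 1 per transcript cluster and array, made with Affymetrix Expression Console per the labels. For the background correction, the probe summary, the array's genome build and software versions, nothing is given in the sources used here. Of 72688 entries, 65770 transcript clusters were tested and 5222 negative controls were used to judge background. Of the clusters, 30473 had 1 symbol in the platform annotation (old symbols were updated through the Entrez number), 2176 several and 33121 none. 0 value columns were left unused.

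The values were not normalized further. shSnail (4 arrays) was compared with control (3 arrays) in R 4.3.3 with limma 3.58.1 (lmFit and eBayes) and Benjamini-Hochberg adjustment over all clusters, at an adjusted p of 0.05. A fit of 3 groups gave each hairpin and their difference. The fits were run on simulated independent normal values with added differences. Those values lack the ties of the deposited table, so they do not show how the fits behave on it. The 8 genes and the gene lists were chosen with earlier results of these data known. Genes were named by rule: all members, up to 4 genes past the test per list, the 5 most correlated with Sele and with Vcam1, and Snai1. Marker genes, neighbours and genes named beside a list's count are given besides. Promoters came from RefSeq (GRCm38.p6).

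Alternatives were quantile normalization, centring on the clusters or the negative controls, a filter at the 40th percentile, one-symbol clusters only, a trended robust variance, array weights, the replicate number as a block, 3 groups in the fit, the methods' analysis of variance, and leaving out each array.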

Additional observations from a re-analysis of the deposited data

Results flagged for a closer look

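Within the 4 shSnail arrays, 1 array stood apart from the other 3 for 3 of the 8 genes, by Dixon's gap test at the 95% level. Icam1 was 6.69 in sh1 replicate 1 and 6.58 on each of the other 3. Icam2 was 5.59 in sh2 replicate 2 and 5.47 on the other 3. Pecam1 was 4.77 in sh1 replicate 1 and 4.68 on the other 3. In all 3 cases the other 3 values were equal, so that any departure would be marked, and all were below the background mark. Chance marks about 5% of groups, and 8 were examined, of which Madcam1 held 4 equal values. No gene was marked for a difference between the hairpins.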

How the results depend on the processing

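Of 135 values of single genes under 17 alternatives (16 for Madcam1), 121 stayed on their side of the threshold without reversing, some of Madcam1 and Pecam1 at exactly 0, while 10 lost the call and 4 reversed. Centred on the negative controls, which moved the median of all clusters by -0.21, the differences of Icam1 (-0.12), Icam2 (-0.17), Madcam1 (-0.20) and Pecam1 (-0.18) turned negative, and none passed. Sele lost its call only with the replicate block (adjusted p = 0.0646, difference -3.23), and Vcam1 with the replicate block (0.228), 3 groups in the fit (0.055), the methods' analysis of variance after adjustment (0.0965) and 6 of 7 single arrays left out. Between arrays with the same replicate number, the correlation of deviations from the group means was -0.21 to 0.157. With 2 arrays a hairpin, the value for sh1 against sh2 is the same for both replicate numbers by construction. Whether the replicate numbers pair the samples was therefore not settled.

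Of the 8 genes, 2 were lower in shSnail, against 0 with the replicate block and 1 with 3 groups in the fit, with the adjusted analysis of variance and at the methods' threshold (unadjusted p under 0.0005 and over 2-fold). Without single arrays 1 to 2 were lower. Over all clusters, 284 were lower and 138 higher in shSnail as deposited. These became 592 and 254 with quantile normalization, 391 and 218 centred on the clusters, and 4109 and 598 centred on the negative controls. For single hairpins and between them, counts over all clusters under these other scalings are not given. Centring on the negative controls moves every cluster of an array by the same amount. Their medians were 5.12 and 5.20 in sh2, against 4.83 to 4.86 in control and 4.92 and 4.99 in sh1. That lowers all clusters in sh2 against the other groups. The counts with this centring therefore cannot be read as a result about the 8 genes. The counts that follow are again of the 8 genes. In sh1, 1 was lower, against 0 with the replicate block, 2 centred on either median, and 0 without any single array. In sh2, 1 was lower, against 0 with the replicate block, 2 with quantile normalization, centring on the clusters or the filter, 8 centred on the negative controls, and 0 to 2 without single arrays. In sh2, 0 were higher, and 0 without any single control or sh1 array. Between the hairpins 0 differed, against 4 centred on the negative controls (Icam1, Alcam, Madcam1 and Pecam1, all lower in sh2). Without any single control array 0 differed.

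Of the 86 pathway genes, 5 were lower, against 0 with the replicate block, 10 with quantile normalization, 19 centred on the negative controls, 1 with the adjusted analysis of variance, 0 at the methods' threshold and 0 to 2 without single arrays. 1 was higher, against 0 with the replicate block, 3 centred on the negative controls, 2 with 3 groups, 0 with either form of the analysis of variance, and 0 to 1 without single arrays. The causes were not tested. Madcam1 was removed by the filter, and each gene had 1 cluster, so that no second cluster could be tried. Signals below the negative controls' 95th percentile limit what can be said of Selp, Icam1, Icam2, Madcam1 and Pecam1, and of the size of the difference in Sele and Vcam1.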
